A study of Homo sapiens with 2 samples.

Results

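The imprinted miRNA cluster of chromosome band 14q32 was examined in small RNA recovered from lysate of MDA231 breast cancer cells on a resin loaded with the lncRNA MACC1-AS1 or on that resin left without RNA. Its members were taken by name from a list of 46 mature miRNAs of the locus, drawn up when earlier results of these data were known. All 46 were present among the 2588 miRNA names counted in each library. Of these, 35 had at least 1 count in either library, and 11 reached 10 counts summed over both.

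MDA231, also called MDA-MB-231, is an established line of basal-like, mesenchymal breast cancer cells, used here as untreated parental cultures. In the bait group, MACC1-AS1 fused to MS2 hairpins (MACC1-AS1-MS2) had been transcribed in vitro and held on amylose resin by MBP-MCP, a fusion of maltose-binding protein and the MS2 coat protein, before lysate was added. The no-bait group had no RNA substrate; cell line, lysate, washing and maltose elution were described in the same words for both. The bait was added to lysate rather than expressed in the cells, and neither an unrelated RNA nor MS2 hairpins alone served as control. Each group held 1 library, so every difference given here compares those libraries and lacks a check by replicates, and p-values were not calculated.

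The 14q32 cluster lies in the DLK1-DIO3 domain, where DLK1, RTL1 and DIO3 are expressed from the paternal chromosome and the non-coding RNAs MEG3, MEG8 and MEG9, with the miRNAs, from the maternal chromosome. The miRNAs are cut from long transcripts of the maternal strand, and those that lie opposite RTL1 can direct cleavage of its mRNA. They are known for expression in embryo, placenta, brain and mesenchymal cells, and for silencing of the locus in many cancers. On GRCh38 the listed hairpins lie on the plus strand of chromosome 14 between positions 100869060 and 101066801, a stretch of 197.7 kb. The 8 hairpins before miR-379 span 42.15 kb and include those opposite RTL1. After a gap of 110.9 kb, 31 hairpins from miR-379 to miR-656 fill 44.74 kb.

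The mature sequences of the 11 members with 10 or more summed counts are shown because the comparison rests on them. They come from RefSeq (GRCh38.p14), in which all 46 names were matched. Capitals mark the seed, bases 2 to 8, which is the main determinant of target choice.
miR-127-3p: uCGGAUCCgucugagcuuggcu
miR-493-5p: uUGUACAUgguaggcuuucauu
miR-370-3p: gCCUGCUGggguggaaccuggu
miR-381-3p: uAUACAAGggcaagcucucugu
miR-409-3p: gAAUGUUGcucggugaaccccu
miR-379-5p: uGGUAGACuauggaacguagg
miR-543: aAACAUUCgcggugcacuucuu
miR-654-3p: uAUGUCUGcugaccaucaccuu
miR-411-5p: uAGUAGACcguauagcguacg
miR-382-5p: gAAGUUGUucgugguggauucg
miR-493-3p: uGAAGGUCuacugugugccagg

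These 11 members carry 11 different seeds, so no count among them stands for a shared seed family. Outside the locus, the seed of miR-379-5p is shared by miR-3529-5p, and within it that of miR-381-3p is shared by miR-300, which had 0 counts in both libraries. Over all 46 members there were 45 seeds, miR-376a-3p and miR-376b-3p being the pair that shares one.

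The cluster was scarce in both libraries and took a smaller share with bait than without. Its 46 members summed to 251 counts with bait, of 1047269 in the library, and to 163 without bait, of 269716. These sums were 0.02397% of the bait library (exact Clopper-Pearson 95% interval 0.02109% to 0.02712%) and 0.06043% of the no-bait library (0.05151% to 0.07045%). In RPM, the count scaled to a library total of 1000000, the cluster stood at 239.7 with bait and 604.3 without. The ratio of bait to no bait was 0.397 with an exact conditional binomial 95% interval of 0.324 to 0.486, a 2.52-fold lower share. With DESeq2 size factors it was 0.531 (0.434 to 0.651), lower but not past 2-fold. All intervals cover counting error alone. With the bait library 3.88-fold deeper, 1 count was worth 0.955 RPM there and 3.71 RPM without bait. Both libraries hold RNA eluted from the resin and neither is of the lysate itself, so levels in the cells were not measured. The lysate came from cultures in bulk, so few cells with these miRNAs and little of them per cell cannot be told apart either. A share also falls when other miRNAs take more of a library, and no scale for the total recovered was given.

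**Figure D1:**
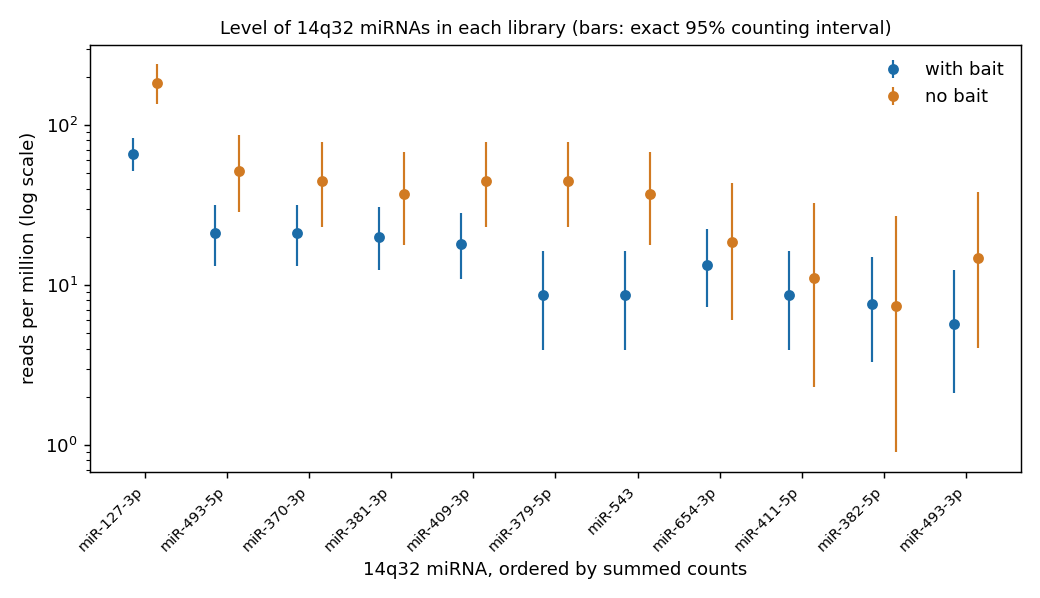
Level of the 11 members of the 14q32 cluster with 10 or more summed counts, in RPM on a log axis, for the bait library (blue) and the no-bait library (orange). Points are single libraries and bars are exact 95% counting intervals; miR-127-3p is highest in both, at 65.9 and 182 RPM, and miR-382-5p is the member whose bait level is not below its no-bait level.

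The most abundant member was hsa-miR-127-3p (chr14:100883035-100883056), a miRNA that lies antisense to an exon of RTL1 and is known to target RTL1 and BCL6. It had 69 counts with bait and 49 without, or 65.9 and 182 RPM. Its ratio was 0.363 (0.248 to 0.534), a 2.76-fold lower share. It held rank 155 among the names of the bait library and rank 96 without bait. A member was called lower when its ratio was at most 0.5 and its interval excluded 1, and higher at a ratio of at least 2 under the same condition.

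In the same group of hairpins, before miR-379, lie miR-493 and miR-370. hsa-miR-493-5p (chr14:100869075-100869096), reported as a suppressor of metastasis, was read 22 times in the bait library and 14 times in the other, at 21.0 and 51.9 RPM. Its ratio was 0.405 (0.198 to 0.855). The opposite arm of that hairpin, hsa-miR-493-3p, had 6 and 4 counts, and its ratio of 0.386 could lie anywhere from 0.0916 to 1.86. hsa-miR-370-3p (chr14:100911186-100911207), whose hairpin lies in introns of MEG8 and of the long non-coding RNA AL117190.1, had 22 and 12 counts (21.0 and 44.5 RPM). Its ratio of 0.472 was past the fold but its interval of 0.224 to 1.05 held 1. Each of these 4 members had a lower level with bait than without, and the calls covered miR-127-3p and miR-493-5p. The call of miR-493-5p was lost with DESeq2 size factors, at 0.542 (0.265 to 1.15).

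The remaining 7 members with 10 or more counts come from the hairpins from miR-379 on, a group best known from neurons, where activity induces it. hsa-miR-379-5p (chr14:101022071-101022091), from the first hairpin of this group in an intron of MEG8, had more counts without bait (12) than with it (9) despite the shallower library. Its levels were 8.59 RPM with bait and 44.5 RPM without, a ratio of 0.193 (0.0719 to 0.499). hsa-miR-543 (chr14:101032033-101032054), also placed in an intron of MEG8, had 10 counts without bait and 9 with it. Its ratio was 0.232 (0.0833 to 0.635). These were the lowest ratios among the 11 members.

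hsa-miR-409-3p (chr14:101065346-101065367), from an intron of MEG9, had 19 counts with bait and 12 without, or 18.1 and 44.5 RPM. Its ratio was 0.408 (0.188 to 0.921), and the call was lost with edgeR TMM factors (0.454, to 1.02) and DESeq2 size factors (0.546). hsa-miR-381-3p (chr14:101045968-101045989), from an intron of MIR381HG, had 21 and 10 counts. Its ratio of 0.541 (0.244 to 1.29) was not called. The first of these was past the 2-fold line and the second was not, yet their intervals overlapped over most of their length.

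Of the last 3, hsa-miR-654-3p stood at 13.4 RPM (14 counts) in the bait library and 18.5 RPM (5 counts) in the other, or 0.721 of its no-bait share (0.245 to 2.56). For hsa-miR-411-5p, 9 and 3 counts put the ratio at 0.773 (0.193 to 4.44). hsa-miR-382-5p, on 8 and 2 counts, was at 1.03 (0.206 to 9.96), the single member of the 11 above 1. Among all names with 10 or more summed counts, 42.15% had a ratio below 1. None of the 3 was called, and their intervals allow a 2-fold change in either direction. The signs of the last 2 turned with the scaling: miR-382-5p was at 0.942 once the 5 most abundant miRNAs were dropped from the totals, and miR-411-5p at 1.04 with DESeq2 size factors.

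**Figure D2:**
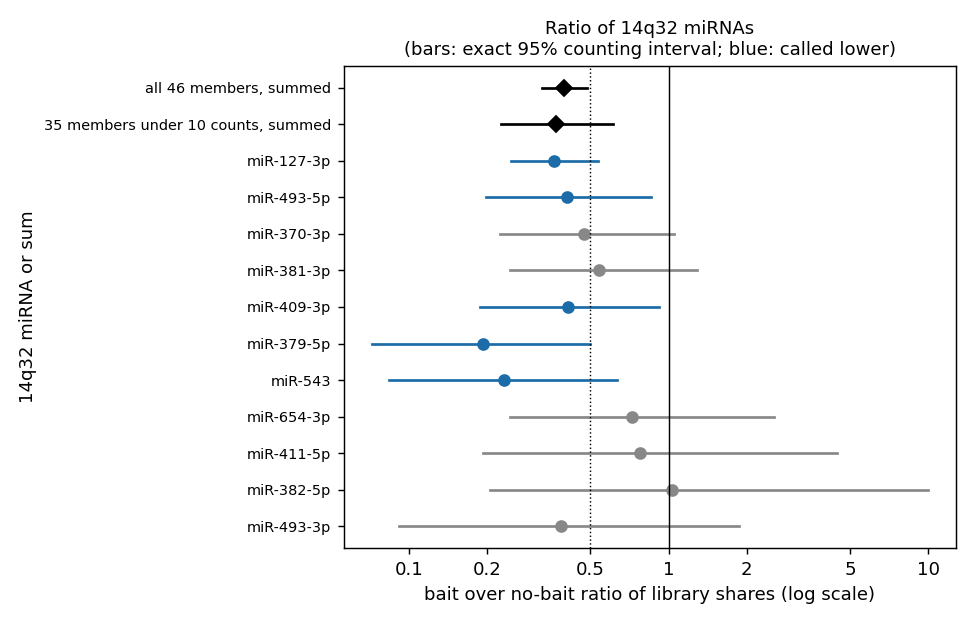
Ratio of library shares, bait over no bait, on a log axis, for all 46 members summed, for the 35 members under 10 counts summed, and for each of the 11 members with 10 or more counts. Bars are exact 95% counting intervals, the solid line marks 1 and the dotted line 0.5; blue marks the 5 members called lower, and every bar overlaps the summed value of 0.397.

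In all, 5 of the 11 members were called lower (3 with DESeq2 size factors) and 0 were called higher. Among all 325 names with 10 or more summed counts, 24.9% were called lower (18.46% with DESeq2 size factors) and 29.2% higher (38.15%). Past 2-fold lower, whatever the interval, were 7 of the 11 members against 27.1% of all names. The median log2 ratio of the 11 was -1.29, beside 0.31 over the 325 names. These counts describe members that passed a minimum on the summed counts and are no support for a shift of the whole list, for which the sum over all 46 stands. The minimum also set what could be called: at 10 summed counts the bait library had to hold 4 or fewer of them, a 5.82-fold lower share, and at 31 counts 19 or fewer, a 2.45-fold lower share. Higher calls were limited too: miR-200c-3p, with 20 counts with bait and 1 without, was not called higher. For members with so few counts, the 0 higher calls cannot be set evenly against the 29.2% of all names. Non-called members such as miR-654-3p and miR-411-5p therefore do not show an unchanged share.

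**Figure D3:**
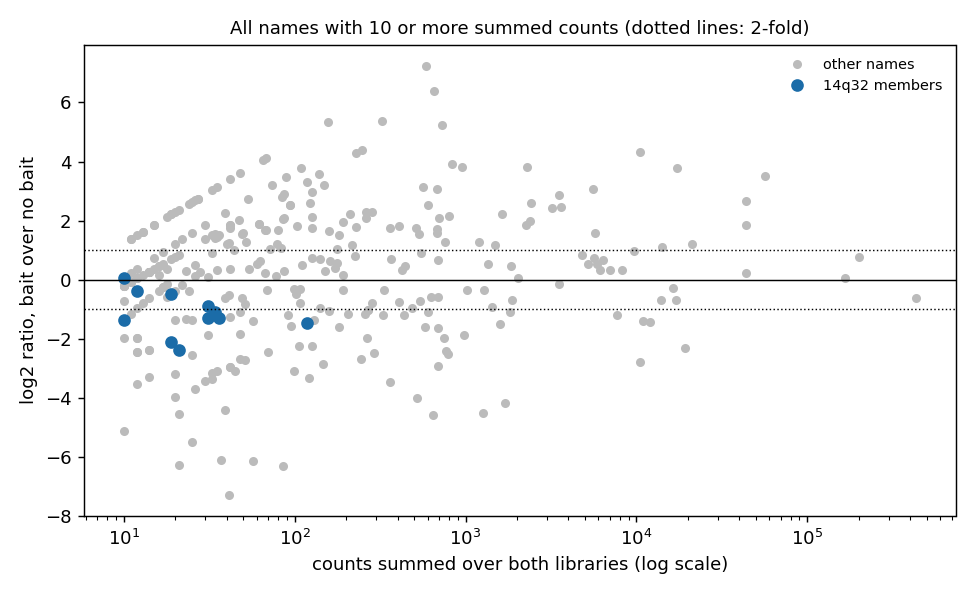
Log2 ratio of bait over no bait against the summed counts (log axis) of the 325 names with 10 or more counts, with the 11 members of the 14q32 cluster in blue. Names at 0 in 1 library are drawn against a floor of 3 counts there; the members lie between -2.37 and 0.04, inside the spread of the other names, with a median of -1.29.

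The ratios of the 11 members ran from 0.193 to 1.03, a 5.33-fold range. The central 95% of the 325 names ran from 0.0431 to 17.2. The interval of each of the 11 members held the ratio of the whole cluster, 0.397. When each of the 11 was set against the sum of the other members, 0 of 11 odds ratios had an interval that excluded 1. The farthest was miR-379-5p, at 0.469 (0.170 to 1.24). Differences between single members were not detectable at this depth.

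The make-up of the cluster can be read without any scaling between the libraries. miR-127-3p made up 27.5% of the cluster's counts with bait (22.1% to 33.5%) and 30.1% without (23.1% to 37.7%). miR-493-5p made up 8.76% and 8.59%, and miR-409-3p 7.57% and 7.36%. miR-370-3p made up 8.76% and 7.36%. miR-379-5p went from 7.36% without bait to 3.59% with it, and miR-543 from 6.13% to 3.59%, with overlapping intervals in both cases. The 11 members together made up 82.9% and 81.6% of the cluster. Across the 35 members with counts, those of both libraries had a Spearman's rho of 0.826, given as a description of members that share 2 libraries and a locus.

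No difference by position within the locus was detectable. The 11 members before miR-379 summed to 124 counts in the bait library and 85 in the other. Their ratio was 0.376 (0.283 to 0.501). The 35 members from miR-379 on summed to 127 and 78, a ratio of 0.419 (0.314 to 0.563). The odds ratio of the first group to the second was 0.896 (0.592 to 1.36), an interval that allows the first group to be lower or higher. Without miR-127-3p the first group had 55 and 36 counts and a ratio of 0.394 (0.254 to 0.617). Within the second group, the neighbouring hairpins miR-379 and miR-411 gave miR-379-5p at 0.193 and miR-411-5p at 0.773, a pair picked after its values were seen. Their odds ratio of 0.261 had an interval of 0.0351 to 1.45.

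**Figure D4:**
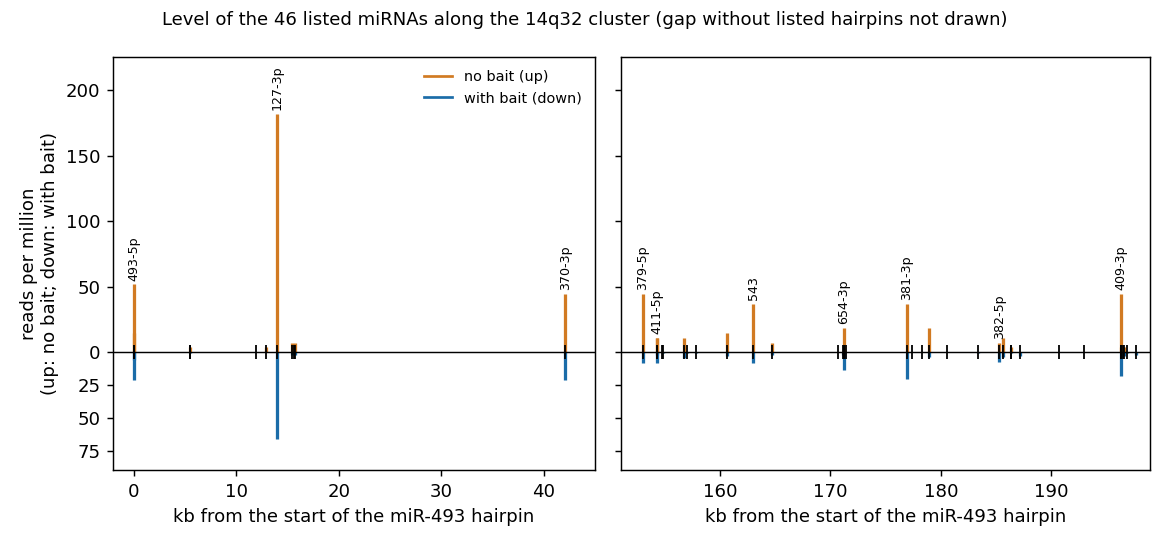
Level of the 46 listed miRNAs, in RPM, against distance in kb from the start of the miR-493 hairpin, with the no-bait library drawn upward (orange) and the bait library downward (blue). Black ticks mark each listed arm, and labels the members with 10 or more counts, miR-493-3p excepted; both sides of the gap hold members with signal, led by miR-127-3p at 182 RPM without bait, and most ticks carry little or none.

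Arms were compared for the 9 hairpins of these members that have named arms, and in 8 of them the same arm led in both libraries. For miR-433 and miR-485 each library held a single count, from opposite arms, which is too few to compare. Of the miR-493 hairpin the 5p arm held 22 of 28 counts with bait, 78.6% (59.0% to 91.7%), and 14 of 18 without, 77.8% (52.4% to 93.6%). The 3p arm held 69 of 70 counts of miR-127 with bait and 49 of 49 without, and 19 of 19 and 12 of 13 counts of miR-409. All 22 and 12 counts of miR-370, and all 21 and 10 of miR-381, came from the 3p arm. miR-379 was read from its 5p arm, with 9 of 9 counts with bait and 12 of 15 without. For miR-411 the 5p arm held 9 of 11 counts with bait and 3 of 6 without, where neither arm led. Summed over the list, the 16 5p arms had a ratio of 0.370 (0.241 to 0.572) and the 29 3p arms one of 0.420 (0.331 to 0.535), with an odds ratio of 0.880 (0.536 to 1.45), while miR-543 is named without an arm.

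The 35 members under 10 counts together gave the same direction as the 11 above it. Their sums were 43 counts with bait and 30 without, and the ratio was 0.369 (0.226 to 0.609). Just under the minimum were miR-889-3p, with 4 counts with bait and 5 without, and hsa-miR-323a-3p, with 5 and 3. Just above it were miR-382-5p, with 8 and 2, and miR-493-3p, with 6 and 4. hsa-miR-134-5p, known for limiting dendritic spine growth in neurons, had 4 counts with bait and 3 without. miR-494-3p had 3 and 4, and miR-411-3p 2 and 3. Of the rest, 19 had 1 to 4 summed counts.

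Counts of 0 were common among the scarce members. In both libraries 11 members had 0 counts: miR-136-5p, miR-154-5p, miR-299-5p, miR-337-5p, miR-376b-3p, miR-376c-3p, miR-377-3p, miR-431-5p, miR-487b-3p, miR-539-5p and miR-655-3p. A count of 0 allows a level of up to 2.86 RPM with bait and 11.1 RPM without (3 counts). A further 10 members were seen with bait alone, at 1 to 3 counts, and 3 without bait alone, at 1 count each. All 13 are within that limit in both libraries, so their presence in 1 library and not the other is not a detectable difference. In all, 32 members had counts with bait and 25 without, 35 in either. Of all 2588 names, 651 had counts with bait and 476 without, 715 in either. The near-identical members miR-376a-3p, miR-376b-3p and miR-376c-3p (2, 0 and 0 counts with bait, 0 in each case without), miR-487a-3p (1 and 0), miR-487b-3p and miR-323b-3p (3 and 0) are uncertain, since the labels and headers do not say how shared reads were divided.

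The other names of the locus were rarer still. Of 49 further mature names of 14q32 hairpins, 42 had 0 counts in both libraries and 0 reached 10 summed counts. The most counted was miR-412-5p, the neighbour of miR-409, with 3 counts with bait and 6 without, followed by names at 3 summed counts such as miR-379-3p. The 49 summed to 10 counts with bait and 12 without, and adding them to the list gave a ratio of 0.384 (0.316 to 0.468).

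Other scarce miRNAs also had a pooled ratio below 1. The 366 other names with 1 to 9 summed counts were at 0.592 (0.517 to 0.679). Against them the 35 scarce members had an odds ratio of 0.624 (0.375 to 1.05), which held 1. The 177 other names between 10 summed counts and the sum of miR-127-3p, the range of the 11 members, had a pooled ratio of 0.837 (0.791 to 0.886), and the odds ratio of the 11 members to them was 0.481 (0.382 to 0.607). These odds ratios do not depend on the scaling between libraries, and were chosen after values of these data had been seen. Their intervals cover counting error and not the spread between miRNAs, so the second says only that these sums differed by more than counting error.

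Summed, markers of the labelled cell type took most of the counts recovered on the resin. The list of 8 miRNAs of basal breast lines took 53.3% of counts with bait and 60.0% without, mainly miR-100-5p and miR-21-5p, while miR-31-5p stood at 9 and 4 counts. Its members moved in both directions, with 1 of the 8 called lower and 3 higher. For example, miR-222-3p stood at 8028 RPM with bait and 40198 without, and miR-125b-5p at 53091 and 4672. The sum is therefore no stable reference. Of 7 epithelial miRNAs, miR-141-3p and miR-205-5p had 0 counts in both libraries, while 5 had counts with bait and 3 without. The most counted was miR-200b-3p, with 144 and 28 counts. The list took 0.0188% and 0.0111%, a ratio of 1.69 (1.15 to 2.57), above 1 where the 14q32 cluster was below it. For the placental cluster on 19q13, the 11 names of the list had 0 counts in both libraries, but 8 of 45 further names of that cluster had counts with bait and 0 without. Of these, 6 (miR-518e-5p, miR-519a-5p, miR-519b-5p, miR-519c-5p, miR-522-5p and miR-523-5p) have the same mature sequence and hold 14 counts each, so their reads cannot be told apart. The others were miR-516a-5p, with 10 counts, and miR-1283, with 2. Among all 2588 names, 651 had counts with bait and 476 without. Of 6 stromal miRNAs, which mark mesenchymal cells as some 14q32 members do, all 6 had counts in both libraries, and they summed to 479 RPM with bait and 790 without. Their ratio was 0.607 (0.516 to 0.716), and the 14q32 cluster had an odds ratio of 0.654 (0.503 to 0.850) to them. Of their counts, miR-143-3p held 251 of 502 with bait and 82 of 213 without. Of the 4 stromal names with 10 or more summed counts, 2 were called lower. These were miR-199a-3p, at 168 RPM with bait and 341 without, and miR-199a-5p, at 55.4 and 126. miR-143-3p itself stood at 239.7 RPM with bait and 304 without. The odds ratio without miR-143-3p was not calculated, so 0.654 holds only for the list with that name in it. Of 7 blood cell miRNAs, miR-144-3p, miR-223-3p and miR-150-5p had 0 counts in both. That list stood at 431.6 RPM with bait and 863.9 RPM without, a ratio of 0.500 (0.426 to 0.588), and the 14q32 cluster had an odds ratio of 0.794 (0.612 to 1.03) to it. miR-486-5p carried that list, with 386 of its 452 counts with bait and 214 of 233 without. The rest went both ways: miR-451a had 4 counts with bait and 10 without, miR-142-3p 17 and 0, and miR-142-5p 45 and 9. Without miR-486-5p the blood cell list was at 0.895 (0.530 to 1.58) and the odds ratio of the 14q32 cluster was 0.444 (0.242 to 0.782). This alternative and the next were added after the values were seen. The sum of 6 neural miRNAs was at 1.55 (1.40 to 1.72), with miR-124-3p and miR-219a-5p at 0. Without miR-218-5p, at 816 and 14 counts, it was 1.11 (0.995 to 1.23), and miR-128-3p, the most counted, stood at 1558 RPM with bait and 1494 RPM without. The level of miR-9-5p was 186 RPM with bait and 81.6 without. The part of such other cell types in the 14q32 result was not tested.

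Because the bait was MACC1-AS1, the complements of the members' seeds were searched in its annotated transcript of 639 nt (GENCODE 29, sense strand, overlaps allowed). For hsa-miR-127-3p the site searched was GGATCCG, for miR-493-5p ATGTACA and for miR-379-5p GTCTACC. Of the 46 members 0 had a match of all 7 bases, against 3.90% of the 2281 names of the files with a RefSeq sequence, 89 names. This says only that these letters are not in this transcript; the isoform used as bait and its MS2 hairpins were not analysed here.

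The sequences of the locus share another run of letters, searched after the sequences had been read. The motif GGUNNAC, on the mature strand, was present in 14 of the 46 members (30.4%) and in 1.797% of the 2281 names, 41 in all, of which 23 are 14q32 names. Because the motif was written from sequences of the locus, its higher share among the members was built in and is not a result. The motif is shown in capitals in members from both sides of the gap and from both arms.
miR-493-3p: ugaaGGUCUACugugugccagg
miR-379-5p: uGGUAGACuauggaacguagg
miR-543: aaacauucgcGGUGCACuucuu
miR-495-3p: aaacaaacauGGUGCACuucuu
miR-323a-3p: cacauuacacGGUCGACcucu
miR-409-3p: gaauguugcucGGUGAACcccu
In miR-379-5p the motif falls within the seed, and in miR-543 and miR-409-3p it begins beyond the seed. Members with the motif summed to 62 counts with bait and 49 without, which gave 0.326 (0.220 to 0.484). Members without it summed to 189 and 114, which gave 0.427 (0.337 to 0.543), and the odds ratio between them was 0.764 (0.480 to 1.22). The shared letters went with no detectable difference in ratio at this depth.

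In the authors' deposited table the log2 fold changes of the 11 members differed from the log2 ratios here by at most 0.000778, as both rest on the same counts. The authors' deposited table gave p-values under 0.05 for 1 member, miR-379-5p at 0.0236, followed by miR-543 at 0.0573 and miR-127-3p at 0.0721. Among all 2588 names, 143 were under 0.05, or 5.53%. That percentage takes in names without counts in either library, since 715 of the 2588 had any. It is therefore no background for the 11 members, all of which had counts. The test behind the p-values is not named in the authors' deposited table, and with 1 library a group it compares libraries and not conditions.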

How the data were processed

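Per library, the deposited file holds a raw count for every mature miRNA name. It also holds the authors' RPM, equal within 0.00994 RPM to the count scaled to a total of 1000000. A separate table, per the file headers, holds the same RPM values, a log2 fold change and a p-value by the authors from a test not named there. BWA is listed in the submitters' processing notes. Not given in the sources used here: miRNA reference, genome build, trimming and handling of shared reads.

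Counts were read for the 46 names and scaled by each library's total (1047269 and 269716). Ratios have exact conditional binomial, odds ratios exact conditional and shares Clopper-Pearson 95% intervals (scipy 1.17.1). The call rule was run over all names with at least 10 summed counts and tested on simulated data. No test of conditions fits 1 library a group. Scaling alternatives used edgeR 4.0.16 and DESeq2 1.42.0 factors only. Named were all members with 10 or more summed counts and those with 5 or more; others were named after their values were seen. Members and lists were chosen with earlier results of these data known. Mature sequences are from RefSeq (GRCh38.p14), hairpins and genes from GENCODE 29 (GRCh38), matched by symbol.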

Additional observations from a re-analysis of the deposited data

How the results depend on the processing

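The ratio of the summed cluster, 0.397, lay between 0.363 and 0.441 under 6 of the 7 alternatives. DESeq2 size factors put it at 0.531 (0.434 to 0.651), still lower but no longer 2-fold. The number of members called lower, 5, was 3 with DESeq2 size factors and 3 at a minimum of 30 counts, where 5 members are tested. It was 4 with TMM, 6 with totals without the 5 most abundant miRNAs and 6 with no count filter, where miR-889-3p joined, and no alternative gave a higher call. Of all names with 10 or more summed counts, 24.9% were called lower with library totals and 18.46% with DESeq2 size factors. This share was 21.54% with TMM and 26.77% without the 5 most abundant miRNAs. At a minimum of 30 counts, 62 of 231 names were called lower. With DESeq2 size factors the calls lost were miR-493-5p and miR-409-3p. The median log2 ratio of -1.29 was -0.87 with DESeq2 size factors. The scalings moved the median of all names by 0.15 (TMM), 0.42 (DESeq2) and -0.13 (without the 5 most abundant), and the lower share of all calls, 46.02%, to 40.7%, 32.6% and 50.0%. Without miR-127-3p the cluster's share was 0.0174% with bait and 0.0423% without, since that member is left out. The sign turned for miR-382-5p (0.942) and miR-411-5p (1.04). For single members 27 of 33 values under other scalings kept direction and call. Beyond the scale shift and the fewer members at 30 counts, the cause was not tested. Depth without bait, 269716 counts, limits each ratio. No paired analysis was possible because each group held 1 library.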
